A study of Mus musculus with 10 samples.

Results

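Sim1 and Sim2, the paralogous genes of the single-minded transcription factors, were followed across the 10 RNA-seq libraries of mouse EDL, psoas, and soleus muscle. They are 2 of the 16112 genes in the count tables, and their Ensembl identifiers were matched to symbols with the GENCODE M21 annotation of GRCm38. The genes were chosen by measured values, because Sim1 was higher in psoas than in EDL and Sim2 was higher in soleus than in EDL. Both comparisons against EDL are therefore given as a description without a test. Soleus was also compared with psoas, a contrast that was not itself used to choose the genes. It rests on the psoas libraries in which Sim1 was chosen for high values and the soleus libraries in which Sim2 was, so that the choice favors the direction found for each gene, and the p-values given for it are not independent of the choice.

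The libraries came from 3 samples of extensor digitorum longus (EDL), a fast muscle of the lower leg, 3 of psoas, a fast muscle along the lumbar spine, and 4 of soleus, a slow muscle of the calf. All mice were homozygous wild type from a colony of strain B6C3Fe a/a-Ttnmdm/J and received no treatment that the labels name. EDL 1, 2, and 3 came from mice of 42, 54, and 44 days, psoas 1, 2, and 3 from mice of 42, 54, and 44 days, and soleus 1 to 4 from mice of 42, 44, 32, and 44 days. The labels hold 7 animal codes, and the study's methods state fewer mice, so that some codes may stand for the same animal. EDL 3 and soleus 2 share a code, as do psoas 1 and soleus 1, and psoas 3 and soleus 4. The tissue was whole muscle, so that fewer cells of a type and less RNA per cell cannot be told apart.

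Single-minded proteins belong to the bHLH-PAS family, in which a basic helix-loop-helix region contacts DNA and PAS domains hold the partner protein. They work as heterodimers with ARNT proteins, which other family members such as the hypoxia-inducible factors and the aryl hydrocarbon receptor also use. Sim1 is known for its need in neurons of the paraventricular hypothalamus that restrain feeding, and Sim2 for its position on the human chromosome that is triplicated in Down syndrome. In embryos both genes are expressed in muscle precursors of the limb, where Sim2 has been described as a repressor of Myod1.

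Sim1 (ENSMUSG00000019913) lies on the plus strand at chr10:50894754-50989152, with 8.62 kb of summed exons. Sim2 (ENSMUSG00000062713) lies on the plus strand at chr16:94084931-94127032, with 4.22 kb of summed exons. The coding transcript taken for each gene has 11 exons, and the coding sequences hold 2295 and 1971 bases. The first 150 coding bases, which encode the start of the protein with its basic region, lie in exon 1 of both genes, at chr10:50895897-50896046 and chr16:94085816-94085965 (GRCm38, plus strand). They are shown because the closeness of the paralogs bears on whether reads of one gene could be counted for the other. Capitals mark the bases at which the genes differ.
Sim1: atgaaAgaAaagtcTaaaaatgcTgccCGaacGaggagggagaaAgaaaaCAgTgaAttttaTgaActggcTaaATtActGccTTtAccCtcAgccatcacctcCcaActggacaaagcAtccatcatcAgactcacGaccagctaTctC
Sim2: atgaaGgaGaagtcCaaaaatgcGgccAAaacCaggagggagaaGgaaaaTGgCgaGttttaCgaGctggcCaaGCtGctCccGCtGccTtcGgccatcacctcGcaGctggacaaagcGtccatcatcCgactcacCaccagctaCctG
These stretches aligned without a gap and differed at 31 of 150 bases, 25 of which were at the third position of a codon. Over the first 1050 coding bases, 77.8% of aligned bases were identical, against 56.6% of the 881 bases aligned after them. The longest run of bases shared by any transcripts of both genes was 26, and 0 stretches of 75 bases, the length of a sequencing read, were shared.

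**Figure D1:**
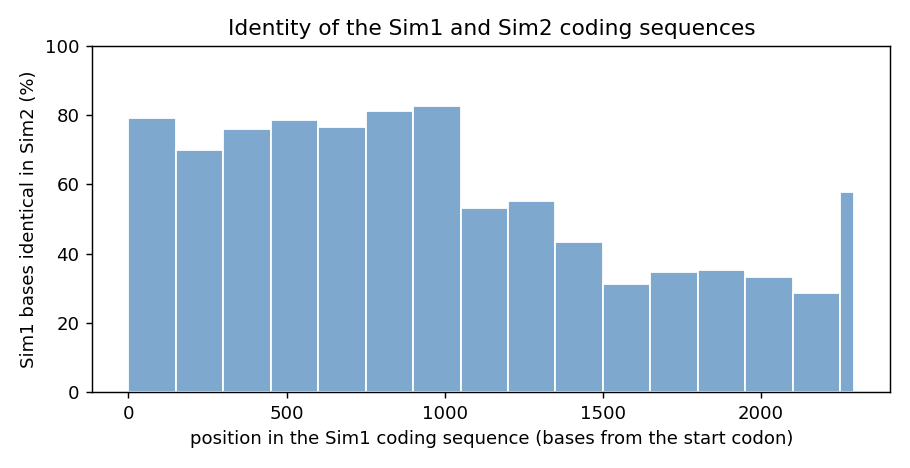
Share of Sim1 coding bases with an identical base in the aligned Sim2 coding sequence (y axis, percent), in windows of 150 bases from the start codon (x axis, bases), the last of 45 bases. Identity lay between 70% and 82.7% in each window of the first 1050 bases and between 28.7% and 57.8% after them.

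Total counts ranged from 15016122 to 47825953 in EDL, from 13820086 to 50431713 in psoas, and from 12737971 to 26848423 in soleus. Levels are given as CPM after TMM normalization (counts divided by the scaled library total) or, where the genes are compared with each other, as FPKM, which also divides by exon length. A count of 0 allows 3 counts, and this floor corresponded to between 0.0565 and 0.165 normalized CPM in EDL and to at most 0.239 in the other libraries. Such floors and the intervals given for counts cover counting error only. The authors quality-trimmed the reads of EDL 1 and 2 and of psoas 1 and 2, and used those of the other 6 libraries without trimming. TMM factors lay between 0.719 in psoas 2 and 1.245 in soleus 2.

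Sim1 was highest in psoas, lower in soleus, and lowest in EDL. In EDL, the 3 libraries held 37, 62, and 21 Sim1 reads, which correspond to 0.864, 1.17, and 1.15 normalized CPM. In psoas, there were 1222, 339, and 271 reads, which correspond to 32.2, 21.5, and 19.2 normalized CPM. In soleus, there were 162, 225, 117, and 161 reads, which correspond to 11.1, 6.73, 9.33, and 8.50 normalized CPM. No library of one muscle reached the range of another, so that the order psoas, soleus, EDL held for each library. The means were 24.3 ± 6.97 normalized CPM (SD, n = 3) in psoas, 8.91 ± 1.81 (n = 4) in soleus, and 1.06 ± 0.172 (n = 3) in EDL. The mean in psoas was 22.9 times that in EDL (log2 fold change 4.52, SE 0.28), and the mean in soleus was 8.39 times that in EDL (log2 fold change 3.07, SE 0.26). These ratios belong to the comparisons by which the gene was chosen and carry no test. With library totals in place of TMM, the psoas value was 4.07 on the log2 scale. The mean FPKM of Sim1 in psoas, 2.83, was above that of 63.4% of the genes, the value in soleus, 1.02, above that of 42.7%, and the value in EDL, 0.122, above that of 6.41%.

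Sim2 was highest in soleus, lower in psoas, and at or under the detection floor in EDL. The EDL libraries held 1, 0, and 0 Sim2 reads, 1 read among 106989573 counts in all. A count of 0 in EDL 3, the shallowest of these libraries, allows up to 0.165 normalized CPM. In psoas, there were 40, 8, and 18 reads, which correspond to 1.06, 0.507, and 1.27 normalized CPM. In soleus, there were 90, 232, 44, and 69 reads, which correspond to 6.16, 6.94, 3.51, and 3.64 normalized CPM. The value in psoas 2 rests on 8 reads, for which the exact 95% Poisson interval is 3.45 to 15.8 reads. All psoas libraries lay above all EDL libraries and below all soleus libraries. The means were 5.06 ± 1.75 normalized CPM (SD, n = 4) in soleus and 0.946 ± 0.395 (n = 3) in psoas. Measured against the highest floor of an EDL library, the mean in soleus was at least 30.7-fold higher than in EDL and the mean in psoas at least 5.74-fold higher. EDL 3 set this bound. Without it, the values against the next highest floor, that of EDL 1, were 72.2-fold and 13.5-fold. EDL 1 held 1 read, for which the exact 95% Poisson interval reaches 5.57 reads, above the 3 counts of the floor. The values without EDL 3 are therefore ratios to a floor and not lower bounds. Like the ratios of Sim1, these values have no test. Per length, Sim2 had an FPKM of 1.17 ± 0.392 (SD, n = 4) in soleus and 0.224 ± 0.0917 (n = 3) in psoas.

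**Figure D2:**
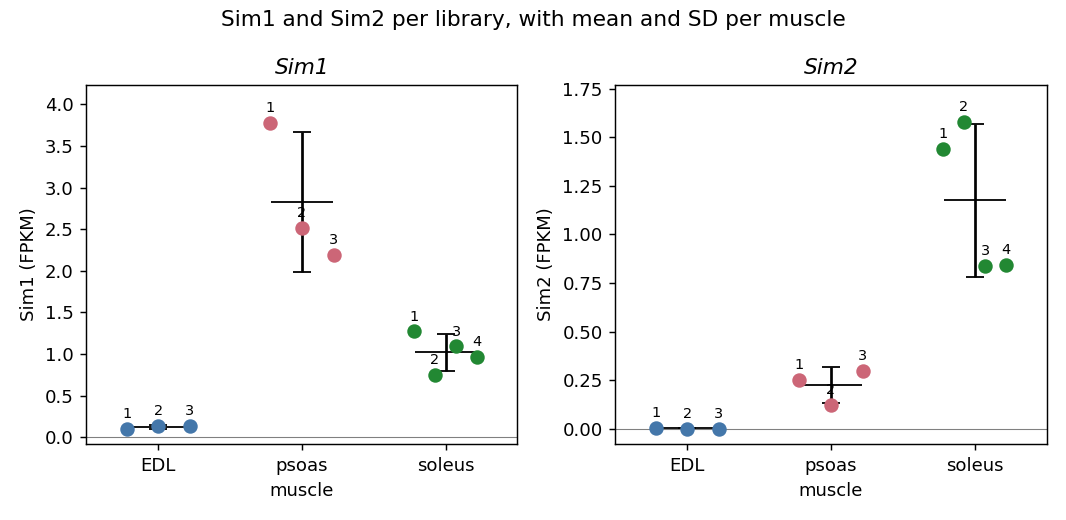
FPKM (y axes, linear) of Sim1 on the left and Sim2 on the right in each library of the 3 muscles (x axes). Points are libraries with their replicate number, and lines and bars give mean and SD (n = 3, 3, and 4). Sim1 points lie from 2.19 to 3.78 in psoas and from 0.750 to 1.27 in soleus, while Sim2 points span 0.121 to 0.298 in psoas and 0.838 to 1.58 in soleus.

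Between soleus and psoas, the genes differed in opposite directions, those that the choice of the genes favors. Sim1 was 2.73 times as high in psoas as in soleus, and Sim2 was 5.35 times as high in soleus as in psoas. In edgeR's quasi-likelihood test over all 10 libraries, the log2 fold change of soleus over psoas was -1.46 for Sim1 (SE 0.22, Benjamini-Hochberg adjusted p = 0.00144) and 2.41 for Sim2 (SE 0.41, adjusted p = 0.0025). These p-values describe the size of the differences against the spread of the libraries and are no independent evidence of their direction. Both genes passed both thresholds (adjusted p under 0.01, change of more than 2-fold), as did 917 of the 16112 genes (5.69%), 481 of them higher in soleus. In both genes the ranges of the muscles did not overlap, which was also the case for 4155 genes (25.8%). The replicates are separate muscle samples, some of which share an animal across muscles, so that the p-values measure the spread between samples that are not all independent.

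All psoas libraries but psoas 3 were trimmed and no soleus library was. The trimmed libraries were also all from males, so that sex and trimming overlap. Psoas 3 and soleus 2 and 4 were from females, soleus 1 was from a male, and no sex is given for soleus 3. With sex as a covariate and without soleus 3, the adjusted p in edgeR's test was 0.0028 for Sim1 and 0.00248 for Sim2. With read trimming as a covariate, the adjusted p was 0.0172 for Sim1 and 0.0558 for Sim2, and among the untrimmed libraries alone, where psoas 3 was set against the 4 soleus libraries and assumed to vary like them, it was 0.106 and 0.14. The log2 fold change stayed between -1.60 and -1.12 for Sim1 and between 1.98 and 2.70 for Sim2 in all 24 alternatives. Sim2 also missed the threshold without psoas 1 (adjusted p = 0.0118) and without psoas 2 (0.0133). Both genes also missed it in a test against a fold change of 2 (adjusted p = 0.176 for Sim1 and 0.0284 for Sim2) and with a proxy of the sequencing run as a covariate (0.0139 and 0.0733). The single untrimmed psoas library held 19.2 normalized CPM of Sim1 and 1.27 of Sim2. Both values were on the psoas side of every soleus library. This was fixed in advance, since the ranges of the muscles did not overlap for either gene, and it adds no support.

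The balance of the paralogs was expressed as the share of Sim2 in the sum of Sim1 and Sim2 per kilobase of exon. In psoas this share was 6.27%, 4.60%, and 11.9% in the 3 libraries, and in soleus it was 53.1%, 67.8%, 43.4%, and 46.7%. Sim1 thus made up most of the sum in every psoas library. In soleus, Sim2 was the larger in soleus 1 and 2 with these exon lengths, but this order depends on the length used. With coding lengths, the soleus shares were 39.3%, 54.6%, 30.4%, and 33.3%, with a mean of 39.4% ± 10.8 (SD, n = 4), so that Sim1 was the larger in all soleus libraries but soleus 2. The psoas shares were then 3.67%, 2.67%, and 7.18%. With exon lengths, the mean was 7.60% ± 3.85 (SD, n = 3) in psoas and 52.8% ± 10.8 (n = 4) in soleus, a difference of 45.2 percentage points. An exact two-sided permutation test gave p = 0.0571, the smallest that 3 libraries against 4 allow, and like the p-values of each gene it is not independent of the choice. By counting error alone, the exact 95% binomial intervals reached at most 17.9% in psoas 3 and at least 34.7% in soleus 3. In EDL 1 the share was 5.23% with an interval of 0.136% to 24.7%, since it rests on 1 Sim2 read, and in EDL 2 and 3 it was 0%, where 3 reads would give 8.99% and 22.6%.

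**Figure D3:**
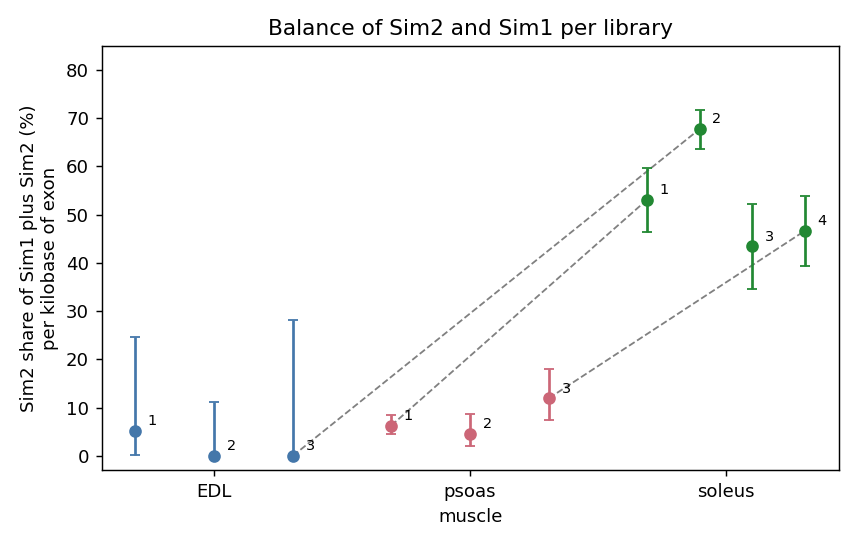
Share of Sim2 in the sum of Sim1 and Sim2 per kilobase of exon (y axis, percent) for each library of the 3 muscles (x axis). Bars are exact 95% binomial intervals of the counts, numbers are replicates, and dashed lines join libraries that share an animal code. The psoas points span 4.60% to 11.9% and the soleus points 43.4% to 67.8%.

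The sum of both genes was lower in EDL than in the other muscles. Both genes were chosen for values above EDL, so that this order follows from the choice and is a description only. It was 0.104, 0.135, and 0.132 FPKM in EDL, 4.03, 2.63, and 2.49 in psoas, and 2.71, 2.33, 1.93, and 1.80 in soleus. The ranges of psoas and soleus overlapped in this sum, while those of each gene alone did not. Within soleus, the library with the lowest Sim1 level, soleus 2, had the highest Sim2 level. The genes did not mirror each other, since soleus 1, with the highest Sim1 level, had more Sim2 than soleus 3 and soleus 4.

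Libraries that share an animal code gave the same order as the groups. This order was fixed in advance, since the ranges of the muscles did not overlap for either gene, and it adds no support. In the mouse of psoas 1 and soleus 1, Sim1 was 2.91 times as high in psoas and Sim2 5.83 times as high in soleus. In the mouse of psoas 3 and soleus 4, whose reads were both untrimmed, Sim1 was 2.26 times as high in psoas and Sim2 2.86 times as high in soleus. In the mouse of EDL 3 and soleus 2, Sim1 was 5.83 times as high in soleus, and Sim2 was at least 42.1-fold higher in soleus than the floor of EDL 3. These are single pairs and were not tested.

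No dimer partner of the single-minded proteins was past the thresholds. None of the 4 measured partners was called in any of the 3 comparisons by edgeR, DESeq2, or limma-voom. At an unadjusted p under 0.05, edgeR counted 0 in psoas vs EDL, 1 in soleus vs EDL, and 0 in soleus vs psoas. In this order, edgeR called 2.11%, 5.77%, and 5.69% of all genes, so that 0 calls among 4 genes are near these shares. The share of all genes at the unadjusted cutoff was not counted. Counts at this cutoff, here and in the lists below, are therefore not read as an excess. Arnt, the common partner of the family, had a mean FPKM (± SD) in EDL, psoas, and soleus of 2.21 ± 0.640, 2.51 ± 0.579, and 3.13 ± 0.289. For Arnt2, the partner of Sim1 in the hypothalamus, these values were 0.0711 ± 0.0403, 0.0540 ± 0.0122, and 0.0491 ± 0.0268. On the FPKM scale, Arnt was thus present in all muscles, and Arnt2 lay under the level of Sim1 in each. For Arntl, the clock gene also known as Bmal1, they were 1.03 ± 0.579, 1.16 ± 0.728, and 2.05 ± 2.24, with a spread in soleus above the mean, and Arntl2 reached at most 0.0546. The median log2 fold change of soleus over psoas was 0.16 for the 4 genes, against 0.02 for all genes.

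Of 16 other bHLH-PAS genes, 11 were measured, and Epas1 was the one that was called. Epas1, which encodes the hypoxia-inducible factor HIF-2α, had a mean FPKM (± SD) in EDL, psoas, and soleus of 1.94 ± 0.0559, 5.99 ± 1.79, and 5.25 ± 1.39. It rose over EDL by 1.61 (SE 0.27, adjusted p = 0.0063) in psoas and by 1.45 (SE 0.26, adjusted p = 0.00359) in soleus on the log2 scale. Of all genes, 2.11% were called in psoas vs EDL and 5.77% in soleus vs EDL. Between soleus and psoas, the log2 fold change of Epas1 was -0.16 (adjusted p = 0.721). None of the 11 genes was called there by the 3 tools, with 4 at an unadjusted p under 0.05. In that comparison edgeR called 5.69% of all genes. Epas1 missed the thresholds in psoas vs EDL without any 1 of EDL 1, EDL 2, psoas 1, psoas 2, psoas 3, or soleus 4, and in soleus vs EDL without any 1 of EDL 1, EDL 2, soleus 1, soleus 2, or soleus 4. The most abundant genes of this list by CPM, Clock and Hif1a, had log2 fold changes of 0.33 (adjusted p = 0.383) and 0.31 (adjusted p = 0.171) in soleus over psoas. The median of the list was -0.16 in that comparison, or -0.18 without Npas3, which had 1, 0, and 1 reads in psoas and 4, 12, 0, and 1 reads in soleus. In psoas vs EDL and soleus vs EDL the medians were 0.13 and -0.05, against 0.01 and -0.05 for all genes.

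**Figure D4:**
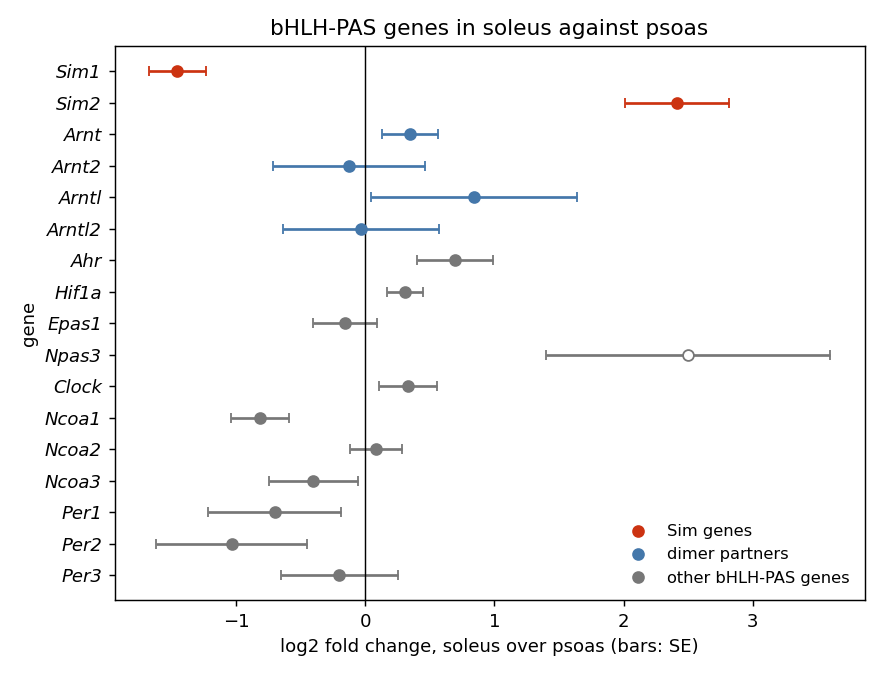
Log2 fold change of soleus over psoas (x axis, bars are SE of the edgeR fit) for Sim1, Sim2, their 4 dimer partners, and 11 other bHLH-PAS genes (y axis). Sim1 lies at -1.46, Sim2 at 2.41, and Npas3 (open point), whose psoas libraries held 0 or 1 reads, above the value of Sim2 with an SE of 1.10 (adjusted p = 0.16), and no gene but Sim1 and Sim2 passed the thresholds.

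Among 11 chaperones, hydroxylases, and targets linked to ARNT dimers, all of which were measured, Egln3 was the one called, in both comparisons of soleus, where 5.77% (soleus vs EDL) and 5.69% (soleus vs psoas) of all genes were called, and 1 call among 11 genes is near these shares. Egln3, a prolyl hydroxylase that marks hypoxia-inducible factors for degradation, had a mean FPKM (± SD) in EDL, psoas, and soleus of 2.92 ± 0.643, 3.19 ± 1.95, and 13.6 ± 2.47. It rose in soleus by 2.24 over EDL (SE 0.40, adjusted p = 0.00377) and by 2.14 over psoas (SE 0.40, adjusted p = 0.00473) on the log2 scale. Its count of calls fell to 0 in soleus vs EDL without any 1 of EDL 1, EDL 2, or soleus 2, and in soleus vs psoas without any 1 of psoas 2, soleus 2, or soleus 4. Without EDL 3, the list had 4 calls in soleus vs EDL and 2 in psoas vs EDL, where it had 0 with all libraries (0 by DESeq2 and limma-voom, and 4 at an unadjusted p under 0.05). The most abundant members by CPM were Hsp90ab1, a chaperone subunit, and Egln1, another hydroxylase, with log2 fold changes of 0.16 (adjusted p = 0.704) and 0.37 (adjusted p = 0.382) in soleus over psoas. The list's median was 0.24 in psoas vs EDL, 0.14 in soleus vs EDL, and -0.25 in soleus vs psoas.

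Factors that mark limb and muscle position were compared with the Sim genes, since both are expressed by regional groups of muscle precursors. Of 23 such genes, 18 were measured, and 1 fell in psoas vs EDL, 3 rose and 2 fell in soleus vs EDL, and 1 rose and 2 fell in soleus vs psoas. Of all genes, 2.11%, 5.77%, and 5.69% were called in these comparisons, so that the 1 call of 18 in psoas vs EDL is of the order of the background, while 5 and 3 calls of 18 are larger shares than among all genes. Barx2, a homeobox gene of muscle precursors, had a mean FPKM in EDL, psoas, and soleus of 2.25, 2.95, and 11.4, with log2 fold changes of soleus over EDL of 2.37 (SE 0.22, adjusted p = 1.05e-04) and over psoas of 1.99 (SE 0.22, adjusted p = 2.36e-04). Of the genes called in soleus vs psoas, it was the one that changed in the direction of Sim2. Eya4, a transcriptional coactivator, fell in soleus, with log2 fold changes of -2.29 against EDL (SE 0.37, adjusted p = 0.00225) and -2.54 against psoas (SE 0.38, adjusted p = 0.00126). Six2 had an FPKM of 0.383 in EDL and 0.188 in psoas, and the soleus libraries held 0 or 1 reads. En1, a homeobox gene of the ventral limb, rose in soleus over EDL from an FPKM of 0.0286 to 0.406 (log2 fold change 3.71, SE 0.59, adjusted p = 0.00189), as did Pitx3, which acts in muscle differentiation (2.48, SE 0.44, adjusted p = 0.00357). The EDL mean of En1, 0.0761 normalized CPM, lay under the highest floor of an EDL library, 0.165, so that the size of its fold change is uncertain. Meox2, a homeobox gene of limb muscle, fell in psoas against EDL (-1.68, SE 0.24, adjusted p = 0.00304). The call of Meox2 was lost without any 1 of EDL 1, EDL 2, psoas 2, or psoas 3, and the 5 calls in soleus vs EDL were 3 without EDL 2. Tbx15, the most abundant of the list by CPM, had a log2 fold change of -0.81 (adjusted p = 0.0736) in soleus over psoas. The list's median was 0.29 in psoas vs EDL, 0.41 in soleus vs psoas, and -0.13 in soleus vs EDL, or 0.05 there with genes under the floor set at their bound.

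Of 14 myogenic regulators, all measured, Id3 was the one called, and in soleus vs psoas only among the 3 comparisons. In that comparison 5.69% of all genes were called, and 1 of 14 is near this share. Id3, an inhibitor of bHLH proteins, rose from an FPKM of 2.63 ± 0.315 (SD) in psoas to 7.41 ± 2.51 in soleus (log2 fold change 1.50, SE 0.27, adjusted p = 0.00372), and this call was lost without any 1 of the psoas libraries. Myod1, the gene on which Sim2 has been described to act, had a mean FPKM in EDL, psoas, and soleus of 1.42, 2.48, and 0.919, with a log2 fold change of soleus over psoas of -1.40 (adjusted p = 0.0451), which is not past the threshold. Myod1 was named for this reason after its values were seen. The most abundant members by CPM, Mef2c and Mef2a, had log2 fold changes of 0.79 (adjusted p = 0.0545) and -0.48 (adjusted p = 0.128) in soleus over psoas. In psoas vs EDL and in soleus vs EDL edgeR called 0 of the 14, with 6 and 4 at an unadjusted p under 0.05, a cutoff at which all genes were not counted. DESeq2 called 3 in psoas vs EDL and 2 in soleus vs psoas, edgeR called 2 in psoas vs EDL without soleus 3, and 1 in soleus vs EDL without EDL 3. The medians of the list were 0.02, 0.06, and 0.42 in psoas vs EDL, soleus vs EDL, and soleus vs psoas.

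Of 8 genes that accompany Sim1 in the hypothalamus, among them its coregulator Otp and the hormones Oxt, Avp, Crh, and Trh, 7 were absent from the table, which leaves out genes with fewer than 3 libraries of at least 10 reads. Bdnf, a neurotrophin that acts in hypothalamic feeding circuits and is also made in muscle, was measured. Its mean FPKM (± SD) in EDL, psoas, and soleus was 0.0939 ± 0.0145, 0.0821 ± 0.0458, and 0.450 ± 0.203. Bdnf rose in soleus by 2.29 over EDL (SE 0.44, adjusted p = 0.00562) and by 2.55 over psoas (SE 0.47, adjusted p = 0.00438) on the log2 scale. Of all genes, 5.77% were called in soleus vs EDL and 5.69% in soleus vs psoas, and 1 measured gene does not stand for the list of 8. The call against EDL was lost without any 1 of EDL 1, EDL 2, EDL 3, soleus 2, or soleus 4, and that against psoas without any 1 of psoas 1, psoas 2, soleus 2, or soleus 4.

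Of the measured genes beside Sim1 and Sim2 on the chromosome, 1 was called, in soleus vs psoas. The shares called among all genes were 2.11% in psoas vs EDL, 5.77% in soleus vs EDL, and 5.69% in soleus vs psoas. These counts of neighbors are thus of the order of the background. Distances are given between gene starts. Within 500 kb of the start of Sim1, Ascc3 was the only gene of the table. It starts 302 kb upstream and ends at chr10:50851485, before the start of Sim1 at 50894754. Its mean FPKM in EDL, psoas, and soleus was 2.07, 2.27, and 1.97, and its adjusted p was between 0.444 and 0.759 in the 3 comparisons, with 0 unadjusted p under 0.05 and 0 calls by DESeq2 or limma-voom. Within 500 kb of Sim2, the table held 11 genes (Setd4, Cbr1, Cbr3, Dop1b, Morc3, Hlcs, Ripply3, Ttc3, Pigp, Vps26c, and Dyrk1a). Dop1b, 373 kb upstream, was the one called in soleus vs psoas, where it fell from 12.1 to 3.70 normalized CPM (log2 fold change -1.70, SE 0.28, adjusted p = 0.00239), against the direction of Sim2. It was not called without psoas 1 or without soleus 4, and without soleus 1 the neighbors had 2 calls. Vps26c, 442 kb downstream, rose from 10.3 normalized CPM in psoas to 19.8 in soleus, in the direction of Sim2. Its log2 fold change was 0.96 (adjusted p = 0.00749), so that it passed the p threshold and missed that of 2-fold. The nearest of the 11 by its start, Hlcs on the minus strand, starts 229 kb downstream. Its other end, at chr16:94128882, lies beside the end of Sim2 at 94127032. Hlcs had log2 fold changes of 0.40 in psoas vs EDL (adjusted p = 0.378) and 0.24 in soleus vs psoas (adjusted p = 0.604). In psoas vs EDL and soleus vs EDL none of the 11 was called by the 3 tools, 6 had an unadjusted p under 0.05 in each, and without EDL 3 there was 1 call in each. The share of all genes at this unadjusted cutoff was not counted, so that the 6 are not read as an excess. No annotated gene that starts within 500 kb overlapped Sim1 or Sim2.

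Markers of fiber types and other cells moved with the muscles beside the Sim genes. All 8 slow fiber markers rose in soleus against psoas, where their sum ranged from 19710 to 31560 normalized CPM in soleus, from 39.0 to 115 in psoas, and from 77.1 to 369 in EDL. Of 8 fast fiber markers, 5 fell in soleus against psoas, and their sum ranged from 14120 to 27070 in soleus, from 106900 to 113500 in psoas, and from 74790 to 106800 in EDL. Among all genes, 5.69% were called in soleus vs psoas. By these markers the muscles matched their labels. Sim2 was thus highest in the slow muscle, while the ratio of Sim1 was largest between psoas and EDL, both fast muscles by these markers. The part of fiber type in these differences was not tested.

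Sim1 is also expressed in kidney and neurons. Of 12 kidney markers, 11 were absent from the table, among them Umod, Slc34a1, Slc12a1, Aqp2, and Lrp2, and the other, Nphs1, ranged from 0.991 to 1.52 normalized CPM in psoas, from 0.714 to 3.15 in EDL, and from 0.686 to 1.43 in soleus. Of 10 neuron markers, 9 were absent (Rbfox3, Snap25, Syt1, Nefl, Nefm, Tubb3, Elavl3, Chat, and Isl1), and Stmn2 lay between 1.27 and 2.79 over all libraries. Summed Schwann cell markers (7 of 8 in the table) ranged from 18.9 to 91.4 normalized CPM in psoas, from 35.9 to 58.3 in EDL, and from 31.2 to 43.6 in soleus.

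Tendon markers differed between the muscles in another order than the Sim genes. The sum of 8 tendon markers ranged from 710 to 799 normalized CPM in EDL, from 30.9 to 82.2 in psoas, and from 109 to 466 in soleus, so that the muscle with the least Sim1 held the most of them. All 8 fell in psoas against EDL and 5 rose in soleus against psoas, where 2.11% and 5.69% of all genes were called. The first count was 1 to 5 without any 1 of EDL 1, EDL 2, the psoas libraries, soleus 1, or soleus 4. The second count was 1 to 3 without any 1 of the psoas libraries or soleus 4. Summed satellite cell markers (7 of 8 in the table) ranged from 34.4 to 40.6 in EDL, from 32.9 to 43.2 in psoas, and from 66.4 to 82.4 in soleus, where Sdc4 was the one called over psoas (log2 fold change 1.32, SE 0.21, adjusted p = 0.00189). Sdc4 made up most of this sum, with a mean of 24.0 normalized CPM in psoas and 59.5 in soleus, the other 6 members were not called in any comparison, and the call of Sdc4 was lost with the run proxy as a covariate. Summed markers of intrafusal fibers, the fibers of the muscle spindle, ranged from 5.11 to 6.61 in EDL, from 1.84 to 3.61 in psoas, and from 14.98 to 25.4 in soleus, with Egr3 and Myl7 absent from the table and Myh7b called over psoas (log2 fold change 4.08, SE 0.40, adjusted p = 1.42e-04). The sum in soleus was mostly Myh7b, with a mean of 18.7 normalized CPM. Ntf3, a neurotrophin made by these fibers, had means of 1.72, 0.398, and 0.946 in EDL, psoas, and soleus, with log2 fold changes of -2.09 in psoas vs EDL (adjusted p = 0.00558), -0.86 in soleus vs EDL (adjusted p = 0.0595), and 1.23 in soleus vs psoas (adjusted p = 0.03). The call of Ntf3 was lost without any 1 of EDL 1, EDL 2, the psoas libraries, or soleus 4. Fibroblast markers summed to between 1891 and 3401 in EDL, 607 and 929 in psoas, and 604 and 1218 in soleus. Cartilage markers (5 of 7 in the table) summed to between 11.1 and 23.3 in EDL, 1.63 and 2.85 in psoas, and 1.51 and 5.50 in soleus. The sum of endothelial markers ranged from 147 to 180 in psoas, from 183 to 232 in soleus, and from 156 to 258 in EDL. The ranges of psoas and soleus did not overlap, as was the case for 25.8% of all single genes. Of the 6 endothelial markers, 0 were called in soleus vs psoas, with a lowest adjusted p of 0.146 in edgeR's test. Macrophage markers summed to between 26.3 and 55.4 in psoas, 69.2 and 160 in EDL, and 52.7 and 81.0 in soleus. Adipocyte markers (82.0 to 219 over all libraries) overlapped between all muscles. The part of these cells in the levels of Sim1 and Sim2 was not tested.

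The genes whose log2 normalized CPM followed Sim1 most closely over the 10 libraries were Dlst (Pearson r = 0.978), Ldb3 (0.972), Tpm2 (0.971), Paqr9 (0.957), and Rai2 (0.955). Dlst encodes a subunit of the mitochondrial 2-oxoglutarate dehydrogenase complex, Ldb3 a protein of the sarcomeric Z-disk, and Tpm2 the beta chain of tropomyosin. Their range was narrower than that of Sim1. Dlst had 88.0 ± 8.29 normalized CPM (SD) in EDL, 154 ± 1.85 in psoas, and 134 ± 7.98 in soleus. Tpm2 had 388 ± 59.0, 998 ± 164, and 746 ± 48.9. Rai2 had 0.682 ± 0.0773, 2.95 ± 0.589, and 2.12 ± 0.615.

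Sim2 was followed most closely by Slc41a1 (r = 0.984), Ptpn3 (0.981), Npepps (0.977), Inpp4a (0.977), and Arf5 (0.975). Slc41a1 encodes a magnesium transporter, Ptpn3 a tyrosine phosphatase, and Npepps an aminopeptidase. Ptpn3 had 19.7 ± 2.04 normalized CPM (SD) in EDL, 43.2 ± 6.36 in psoas, and 84.0 ± 20.6 in soleus, and Slc41a1 had 8.22 ± 0.368, 14.0 ± 2.98, and 21.3 ± 3.04. The paralogs themselves had r = 0.706 with each other, which 991 genes exceeded for Sim1 and 1568 for Sim2. These coefficients describe 10 libraries that fall into 3 groups and share library, depth, and animal effects.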

How the data were processed

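RNA was prepared by the authors from whole EDL, psoas, and soleus muscles with ribosomal RNA depletion (TruSeq Stranded Total RNA) and sequenced as read pairs of 75 bases. The authors trimmed 4 of the 10 libraries with Trimmomatic 0.32, aligned the pairs to GRCm38 with TopHat2 2.1.1, and counted reads per gene with GenomicAlignments. The deposited values are raw counts, limited to genes that reached 10 reads in 3 or more samples, and all 16112 genes in the files met this filter. Neither the strand setting nor the treatment of reads with several alignments is given in the sources used here.

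Groups were taken from the sample labels. Counts were tested with edgeR 4.0.16 (R 4.3.3), with TMM normalization, 3 groups in 1 quasi-likelihood fit, no covariate, and Benjamini-Hochberg adjustment over all genes, and the fit was tested on simulated data. Normalized CPM for correlations were taken as log2 with a prior count of 2. FPKM were computed with DESeq2 1.42.0 and summed exon lengths of GENCODE M21, in which 16032 genes have a symbol. Coding sequences were read from GENCODE M21 transcripts and aligned with Biopython 1.88. Alternatives used DESeq2, limma 3.58.1, covariates, other scalings, thinned counts, and fits without each library.

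The members, gene lists, and tests were chosen with earlier results of these data known. Besides Sim1 and Sim2, the text names genes of the lists that were called or were the most abundant, the 5 genes with a symbol most correlated with each member, and genes of the table that start within 500 kb. Arnt2, Arntl2, Myod1, and Npas3 were named after their values were seen. For 1 further gene under this rule, no values are reported here. Total counts ranged from 12737971 to 50431713.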

Additional observations from a re-analysis of the deposited data

How the results depend on the processing

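In soleus vs psoas, Sim1 kept its direction in all 24 alternatives and its call in 20, and Sim2 kept its direction in all 24 and its call in 17. The adjusted p of Sim1 and Sim2 was 0.176 and 0.0284 in a test against a fold change of 2, 0.0172 and 0.0558 with read trimming as a covariate, 0.0139 and 0.0733 with a proxy of the sequencing run, and 0.106 and 0.14 in untrimmed libraries alone. Without 1 library it ranged from 0.00181 to 0.00727 for Sim1 and from 0.00316 to 0.0133 for Sim2. The run proxy was built from trimming and age, since the run of each library is not given in the sources used here. With the replicate block, the adjusted p of Sim2 was 0.0109, and 539 genes were called. Replicate numbers do not pair the samples, since deviations of same-numbered libraries correlated between -0.234 and 0.503 and 1 such pair shares an animal code. The 917 genes called in soleus vs psoas were 1383 with DESeq2, 176 in the test against a fold change of 2, 566 with read trimming and 475 with the run proxy as a covariate, 33 in untrimmed libraries alone, and between 493 and 964 without 1 library (493 to 609 when psoas 1, psoas 2, soleus 2, or soleus 4 was left out). In psoas vs EDL, the 340 called genes ranged from 0 in untrimmed libraries alone to 1094 with DESeq2, with 963 when EDL 3 was left out and 61 to 194 when EDL 1, EDL 2, any psoas library, soleus 1, or soleus 4 was. In soleus vs EDL, the 929 ranged from 48 in untrimmed libraries alone to 1520 with DESeq2, with 1511 when EDL 3 was left out and 385 to 588 when EDL 1, EDL 2, or soleus 4 was. The log2 fold change of Sim1 in psoas vs EDL was 4.07 with library totals and 4.06 in untrimmed libraries alone. Without 1 library, the ratio of Sim2 to the highest EDL floor ranged from 4.74 to 13.5 in psoas and from 26.9 to 72.2 in soleus. The highest of these, without EDL 3, rest on the floor of EDL 1, which held 1 read, and are not lower bounds. The difference in Sim2 share was between 32.0 and 40.8 percentage points without the length correction, with coding lengths of GENCODE M21 in place of exon lengths, or in untrimmed libraries alone, and between 40.2 and 48.3 without 1 library. Without the length correction the mean Sim2 share in soleus was 36.0% and with coding lengths 39.4%. With DESeq2, calls went from 1 to 2 among the other bHLH-PAS genes and among position factors in psoas vs EDL, from 3 to 6 among position factors in soleus vs psoas, and from 1 to 3 among ARNT-linked genes in soleus vs EDL, where limma-voom also called 3. With the run proxy, none of Epas1, Egln3, and Bdnf was called in soleus vs EDL, none of Egln3, Id3, Dop1b, and Sdc4 in soleus vs psoas, and 1 position factor in soleus vs EDL. The cause of these shifts was not tested. The floors used for Sim2 in EDL depend on the depth of the EDL libraries, which held 1 Sim2 read in all. EDL 1 and 2, with 44147498 and 47825953 counts, were deeper than every soleus library.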
